A study of Rattus norvegicus with 18 samples.

Results

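The nuclear genes for subunits of respiratory chain complexes III, IV and V were followed in the livers of control rats and of rats from a 10-week and a 24-week model of non-alcoholic steatohepatitis (NASH). Genes were taken by symbol, those starting with Uqcr or named Cyc1 for complex III, Cox4 to Cox8 for complex IV and Atp5 for complex V, and had to reach 10 rounded counts in at least 6 of the 18 rats. Of 32623 genes in the tables, 47 matched by symbol and 39 reached the minimum, 10 for complex III, 12 for complex IV and 17 for complex V. All 39 also passed the filter of the test, which left 12904 genes. They carry 37 symbols, since Uqcrb and Cox6b1 each have 2 Ensembl entries, and 34 of the symbols are subunits. Of the other 3, Cox7a2l is a factor that joins complexes into supercomplexes, and Atp5s and Atp5sl are not subunits of the ATP synthase.

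RNA of liver tissue was sequenced from male Wistar rats, 6 per group. Control rats received standard chow and normal water for 12 weeks. NASH rats inhaled carbon tetrachloride (CCl4), a liver toxin, and drank phenobarbital, which increases its toxicity, for 6 weeks, followed by 4 weeks of a diet rich in fat and cholesterol (HFCD). NASH-CH rats, the model with established cirrhosis, had CCl4 and phenobarbital for all 24 weeks, with HFCD in the last 16. Chemical exposure, diet, duration and age differ together between the groups, so their parts in any difference cannot be told apart, and no control group was matched to the 24 weeks. Total counts were 19498516 to 27174006 in control, 20827733 to 29491895 in NASH livers and 44680345 to 60117806 in NASH-CH rats, so sequencing depth also goes with the NASH-CH group.

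Complex III passes electrons from ubiquinol to cytochrome c, complex IV passes them on to oxygen, and complex V, the ATP synthase, uses the proton gradient that the respiratory chain builds to make ATP. The catalytic centres of complexes III and IV include subunits coded by mitochondrial DNA, and the nuclear genes add the remaining subunits, many of them small. Hepatocytes are rich in mitochondria, and their ATP supports gluconeogenesis, urea synthesis and fat oxidation. Nuclear respiratory genes are known targets of the ETS factor GABP, of NRF1, of Sp1 and of YY1.

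The promoters of the 4 members lower in both models other than Atp5g1, and of the 3 genes that code the same c subunit of complex V, are shown because the results turn on these genes. Each line gives the 120 bases before the annotated start, 5′ to 3′ on the strand of the gene, from RefSeq on build GRCr8, which is not the build the counts were made on. The windows lie on the minus strand at chr5:134790883-134791002 (Uqcrh), chr10:38089979-38090098 (Uqcrq), chr8:89601150-89601269 (Cox7a2), chr11:44657484-44657603 (Atp5o), chr10:81523346-81523465 (Atp5g1), chr7:135678219-135678338 (Atp5g2) and chr3:79220665-79220784 (Atp5g3). Capitals mark matches to CCGGAAG (ETS) or GCGCANGC (NRF1 core) on either strand.
Uqcrh: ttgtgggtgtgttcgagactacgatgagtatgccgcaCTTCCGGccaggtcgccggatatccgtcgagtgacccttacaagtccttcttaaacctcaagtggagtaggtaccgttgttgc
Uqcrq: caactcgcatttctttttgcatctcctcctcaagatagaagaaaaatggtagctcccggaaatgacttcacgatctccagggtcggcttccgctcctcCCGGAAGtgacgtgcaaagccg
Cox7a2: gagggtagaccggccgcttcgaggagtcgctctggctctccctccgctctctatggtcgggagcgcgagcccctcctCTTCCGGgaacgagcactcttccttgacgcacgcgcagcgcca
Atp5o: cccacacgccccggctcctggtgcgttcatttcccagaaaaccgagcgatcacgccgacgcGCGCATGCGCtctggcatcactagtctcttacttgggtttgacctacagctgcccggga
Atp5g1: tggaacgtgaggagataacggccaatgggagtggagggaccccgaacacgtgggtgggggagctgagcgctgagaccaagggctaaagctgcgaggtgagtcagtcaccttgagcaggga
Atp5g2: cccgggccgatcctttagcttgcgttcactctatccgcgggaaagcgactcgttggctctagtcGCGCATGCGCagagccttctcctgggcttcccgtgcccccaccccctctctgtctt
Atp5g3: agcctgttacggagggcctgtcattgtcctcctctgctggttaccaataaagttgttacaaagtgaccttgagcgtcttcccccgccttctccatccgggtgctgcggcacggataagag
A match to the ETS letters started 83 bases before the start of Uqcrh, 22 before that of Uqcrq and 43 before that of Cox7a2. The NRF1 letters matched Atp5o and Atp5g2 on both strands at overlapping positions, and the windows of Atp5g1 and Atp5g3 held no match to these letters or to GGGCGG (Sp1) and AAGATGG (YY1).

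RefSeq entries were found for all 37 symbols, and promoters for 30, each of 250 bases before and 50 after the start. ETS letters were in 36.7% of the 30 member promoters and in 9.22% of all 27457 promoters of that length, and YY1 letters in 30% and 7.3%. NRF1 letters were in 26.7% of member promoters and 9.67% of all promoters, and Sp1 letters in 36.7% and 34.9%. Among the 19005 promoters of protein-coding genes the shares were 11.2% (ETS), 7.58% (YY1), 12.2% (NRF1) and 43.1% (Sp1), so the member share for Sp1 lay above that of all promoters and below that of coding ones. These 4 motifs were searched on both strands, and 4 member promoters, those of Uqcr10, Cox7b, Atp5d and Atp5g1, held none of them. These are matches of letters, which say nothing about binding in these livers.

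The transcript level of the members was lower in both models than in the mean control rat. To describe a rat in 1 value, the median over members of the log2 CPM (counts scaled to a common library size) minus the control mean of each gene was taken, with library sizes scaled by TMM factors. For all 39 members this level was -0.33 to 0.25 in control rats (median 0.09), -0.45 to -0.22 in NASH rats (median -0.34) and -0.76 to -0.29 in NASH-CH rats (median -0.42). Control rats 2 and 6, at -0.33 and -0.32, lay among the NASH rats, while the other 4 controls were at 0.04 or above. NASH-CH rats 5 and 6, at -0.73 and -0.76, lay below all other rats. In bulk tissue, fewer cells of a type and less RNA per cell cannot be told apart.

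**Figure D1:**
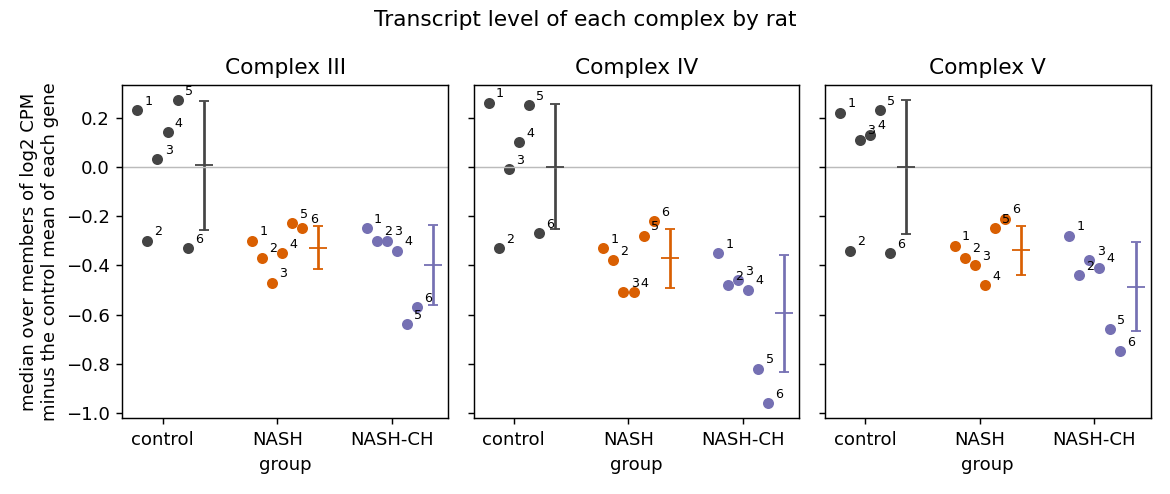
Transcript level of complexes III, IV and V by rat: each point is 1 rat, with its number, and the y axis is the median over the members of that complex of log2 CPM minus the control mean of each gene. The bar beside each group is the mean ± SD (n = 6). Control rats 2 and 6 sit among the NASH rats in all 3 panels, and NASH-CH rats 5 and 6 are lowest, down to -0.96 in complex IV.

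The scaling factor of a library moved with this level. It was 0.79 to 0.897 in control rats 1, 3, 4 and 5, 1.01 and 1.03 in control rats 2 and 6, 0.983 to 1.15 in NASH rats, 0.97 to 1.01 in NASH-CH rats 1 to 4, and 1.28 and 1.22 in NASH-CH rats 5 and 6. The 10 most abundant genes took 47.4% to 56.3% of the counts in control rats, 43.5% to 46.2% in NASH livers and 42.4% to 48.3% in NASH-CH rats. With library size alone and no such factor, the fold change of the median gene, on the log2 scale, was 0.23 in NASH livers and 0.27 in NASH-CH rats, against 0.01 in both with TMM. Relative to that median, the median member was at -0.36 with TMM and -0.35 without it in NASH, and at -0.48 and -0.47 in NASH-CH rats. A scaling factor shifts all genes of a rat alike, so taking this difference removes it. The near-equality follows from the calculation and is no check of the scaling. As a plain share of all counts the members took 0.292% to 0.363% in control, 0.279% to 0.337% in NASH livers and 0.278% to 0.306% in NASH-CH rats, and these ranges overlap.

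**Figure D2:**
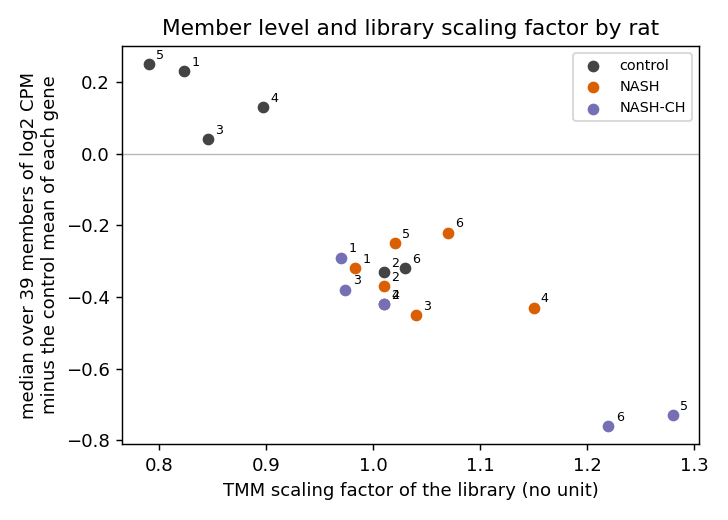
Member level and library scaling factor: each point is 1 of the 18 rats, with its number and coloured by group, the x axis is the TMM factor (no unit) and the y axis the median over the 39 members of log2 CPM minus the control mean of each gene. The 4 controls with factors under 0.9 are the only rats above 0, and NASH-CH rats 5 and 6, with factors of 1.28 and 1.22, are the lowest.

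In NASH rats, 5 of the 39 members were lower than in control rats and 0 were higher (limma-voom, adjusted p under 0.05), which is 12.8% of the members against 1.54% of all genes called lower and 1.58% called higher. The 5 were Uqcrh and Uqcrq of complex III, Cox7a2 of complex IV, and Atp5g1 and Atp5o of complex V. All 39 log2 fold changes were negative, from -0.77 to -0.08 with a median of -0.35, while the median of all genes was 0.01, and 29 members (74.4%, against 21.5% of all genes) had an unadjusted p under 0.05. With library size alone 32 of the 39 were negative and 10 had an unadjusted p under 0.05. The medians of the complexes were -0.33 (III), -0.38 (IV) and -0.32 (V). No member was separated from control without overlap, against 1.39% of all genes on the lower side.

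The number called in NASH rats rested on single rats. It was 17 without control rat 2, 20 without control rat 6, and 0 without control rat 1, 3, 4 or 5 or without NASH rat 3, 4 or 5. The share of all genes called lower moved too, to 2.16%, 4.19% and 0.465% to 0.721% in these fits. Without NASH rat 1 or 2 the number of members was 1, with 0.945% and 1.19% of all genes called lower. Without NASH-CH rat 2, 3 or 4 it was 3, with 1.3% to 1.33% of all genes. Without NASH-CH rat 5 or 6 it was 9 or 8, with 2.81% and 1.79% of all genes. All groups are fitted together, so leaving out a NASH-CH rat can change these counts. The median over members stayed between -0.41 and -0.29 in these fits, and edgeR called 9 and DESeq2 19 members lower, with 2.53% and 5.1% of all genes called lower by these tools.

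In NASH-CH rats, 28 of the 39 members were lower and 0 higher than in control rats, 71.8% against 8.6% of all genes called lower and 8.38% called higher. By complex these were 5 of 10 (III), 11 of 12 (IV) and 12 of 17 (V), with median log2 fold changes of -0.37, -0.65 and -0.44, and -0.47 over all members. The 12 of complex V include Atp5s, which is not a subunit (log2 fold change -0.42, adjusted p = 0.0335). In all, 9 members did not overlap with control in any rat, namely Uqcr10, Uqcrfs1, Uqcrh, Uqcrq, Cox5b, Cox7a2, Cox7c, Cox8a and Atp5j, against 3.46% of all genes on the lower side. The gap between the highest NASH-CH rat and the lowest control was narrow for Uqcrh (31.04 and 31.08 CPM), Uqcrfs1 (63.24 and 63.61), Cox5b (58.48 and 59.24) and Atp5j (22.36 and 22.75). These CPM are scaled by TMM factors, which move with the member level, and overlap was not judged with library size alone. Only Atp5sl, at 0.00, and the Uqcrb entry ENSRNOG00000032204, at 0.10, had a log2 fold change that was not negative. With NASH-CH rats 5 and 6 left out together, 16 members were called lower (3, 7 and 6 by complex) and the median was -0.38. In that fit 6.4% of all genes were called lower. With library size alone, 17 were lower and 2, Atp5sl and that Uqcrb entry, were higher at 0.26 and 0.34, with all genes at 489 lower and 2781 higher in place of 1110 and 1082. Both models are set against the same 6 control rats, so the 2 comparisons are not independent of each other.

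**Figure D3:**
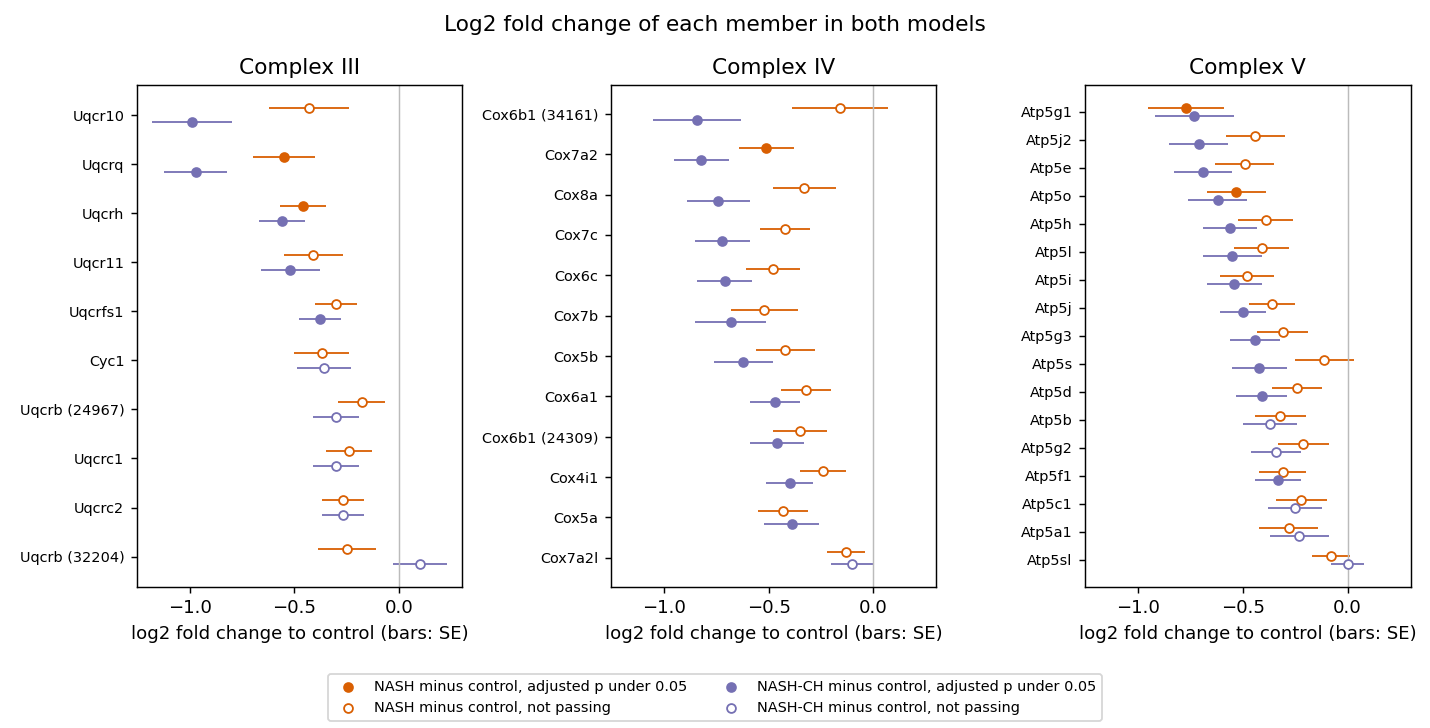
Log2 fold change of each of the 39 members to control in NASH (orange) and NASH-CH rats (purple), by complex; bars are the standard error and filled points have adjusted p under 0.05 (limma-voom, n = 6 per group). The entries of Uqcrb and Cox6b1 carry the last digits of their Ensembl numbers. NASH has 5 filled points and NASH-CH has 28, all to the left of 0.

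In complex III the 6 entries for small subunits had a median log2 fold change of -0.54 in NASH-CH rats, the redox subunits Cyc1 and Uqcrfs1 -0.37, and the core proteins Uqcrc1 and Uqcrc2 -0.29. Transcript lengths were not compared, so their part in differences between small and larger subunits was not tested in any complex. Uqcrq, a small subunit beside cytochrome b, was at 61.1 to 104 CPM in control (median 94.7), 52.3 to 67.8 in NASH livers (57.4) and 30 to 51.8 in NASH-CH rats (45.1). Every NASH-CH rat was below every control and every NASH rat, and NASH and control overlapped. It fell by 0.55 on the log2 scale in NASH livers (SE 0.15, adjusted p = 0.0469, limma-voom) and by 0.97 in the NASH-CH group (SE 0.15, adjusted p = 0.000232). Uqcr10, another small subunit, was at 6.4 to 12 CPM in control (median 10.5), 5.32 to 7.93 in NASH livers (7.1) and 3.33 to 5.88 in NASH-CH rats (5.04). The NASH-CH rats were all below the controls, and the log2 fold change was -0.99 (SE 0.19, adjusted p = 0.00154), against -0.43 in NASH (adjusted p = 0.211).

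Uqcrh, the hinge protein that sits at cytochrome c1, was at 31.1 to 50.2 CPM in control (median 43.1), 27.2 to 32.5 in NASH livers (29.6) and 23.2 to 31 in NASH-CH rats (27.7). In all, 5 of 6 NASH rats and all 6 NASH-CH rats lay below every control, the highest NASH-CH rat narrowly, at 31.04 against 31.08 CPM. The log2 fold change was -0.46 in NASH livers (SE 0.11, adjusted p = 0.0295) and -0.56 in the NASH-CH group (SE 0.11, adjusted p = 0.00238). Uqcr11 fell by 0.52 in NASH-CH rats (adjusted p = 0.0164), a call lost without NASH-CH rats 5 and 6 (adjusted p = 0.0898). The Rieske iron-sulfur protein Uqcrfs1 was at 63.6 to 87.3 CPM in control, 54.8 to 69.1 in NASH livers and 47.1 to 63.2 in NASH-CH rats. Its log2 fold change of -0.38 in NASH-CH rats passed (adjusted p = 0.0176), but not without rats 5 and 6 (adjusted p = 0.0726).

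The core proteins Uqcrc1 and Uqcrc2 and the redox subunit Cyc1 did not pass in either model, and Uqcrfs1 passed in NASH-CH rats alone. In NASH-CH rats the log2 fold change was -0.30 for Uqcrc1 (95% interval -0.54 to -0.06, adjusted p = 0.0761), -0.27 for Uqcrc2 (-0.49 to -0.05, adjusted p = 0.0828) and -0.36 for Cyc1, cytochrome c1 (-0.64 to -0.08, adjusted p = 0.0746). The ratio of 2 genes within a rat does not depend on library scaling. The log2 ratio of Uqcrq to Uqcrc2 counts was -0.70 to -0.35 in control, -0.85 to -0.65 in NASH livers and -1.63 to -0.98 in NASH-CH rats. The NASH-CH rats were below both other groups, and the same held for Uqcr10 over Uqcrc2, at -3.97 to -3.47, -4.17 to -3.75 and -4.71 to -4.25. For Uqcrh over Uqcrc2 the ranges were -1.69 to -1.41, -1.84 to -1.65 and -1.93 to -1.80, with NASH-CH below control and overlapping NASH. In all, 9 such ratios were computed over the 3 complexes, of a small subunit or Atp5g1 to Uqcrc2, Cox4i1 or Atp5a1. All are given as descriptions, with no test, since the pairs were chosen after their values were seen.

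The 2 Uqcrb entries went different ways. ENSRNOG00000024967 was at 12.7 to 18.7 CPM in control and 9.58 to 13.9 in NASH-CH rats (log2 fold change -0.30, adjusted p = 0.0552), and ENSRNOG00000032204 at 6.06 to 11 and 7.2 to 9.71 (0.10, adjusted p = 0.628). The counting divided reads between the entries, and RefSeq lists a pseudogene of this gene, so both values are uncertain, as are those of the 2 Cox6b1 entries.

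In complex IV the 4 members of the subunit 7 and 8 group, small membrane subunits, had a median log2 fold change of -0.73 in NASH-CH rats and all 4 passed. All 4 entries of the subunit 6 group (median -0.59) and all 3 genes for subunits 4 and 5 (median -0.40) passed as well. Cox7a2l was at -0.10 (adjusted p = 0.488) and was the member of complex IV that did not pass. Cox7a2 was at 46.4 to 75.6 CPM in control (median 64.8), 40.3 to 47.4 in NASH livers (43) and 27.3 to 41.2 in NASH-CH rats (37.9). All NASH-CH rats and 4 of 6 NASH rats were below every control. It fell by 0.51 on the log2 scale in NASH livers (SE 0.13, adjusted p = 0.0403) and by 0.82 in the NASH-CH group (SE 0.13, adjusted p = 0.000472).

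Cox7c was at 58.6 to 91 CPM in control (median 72.6), 50.6 to 61.3 in NASH livers (52.8) and 30.6 to 53.8 in NASH-CH rats (46.7). Cox8a was at 46.9 to 72 CPM in control (median 58.5), 39.4 to 58.5 in NASH livers (46.6) and 25.1 to 42.6 in NASH-CH rats (39.7). For both, every NASH-CH rat was below every control, while NASH and control overlapped. Cox7c fell by 0.72 (SE 0.13, adjusted p = 0.000883) and Cox8a by 0.74 (SE 0.15, adjusted p = 0.00306) in NASH-CH rats. Neither passed in NASH rats, where Cox7c was at -0.42 (adjusted p = 0.0655) and Cox8a at -0.33 (adjusted p = 0.207). Cox6c was at 61.6 to 95.4 CPM in control (median 87.3), 49.3 to 66.6 in NASH livers (57.7) and 38.7 to 63.1 in NASH-CH rats (50.3). Its ranges overlap, and the log2 fold change was -0.71 in NASH-CH rats (SE 0.13, adjusted p = 0.00173).

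Cox4i1, which binds ATP and ADP as regulators of complex IV, was at 126 to 190 CPM in control, 119 to 144 in NASH livers and 92.5 to 134 in NASH-CH rats. Its log2 fold change of -0.40 in NASH-CH rats passed (adjusted p = 0.0205), as did -0.39 for Cox5a (adjusted p = 0.0414), but neither passed without NASH-CH rats 5 and 6 (adjusted p = 0.0855 and 0.147). Cox5a passed in only 8 of the 18 fits that left out a single rat: it was lost without control rat 1, 3, 4 or 5, NASH rat 1 or 5, or NASH-CH rat 2, 4, 5 or 6, at -0.39 to -0.33. The log2 ratio of Cox7a2 to Cox4i1 counts was -1.51 to -1.21 in control, -1.83 to -1.49 in NASH livers and -2.05 to -1.66 in NASH-CH rats. For Cox8a over Cox4i1 it was -1.59 to -1.22, -1.71 to -1.21 and -2.20 to -1.65. In both ratios the NASH-CH rats lay below every control. For Cox7c over Cox4i1 the ranges of -1.31 to -0.94, -1.48 to -1.19 and -1.91 to -1.20 overlapped.

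**Figure D4:**
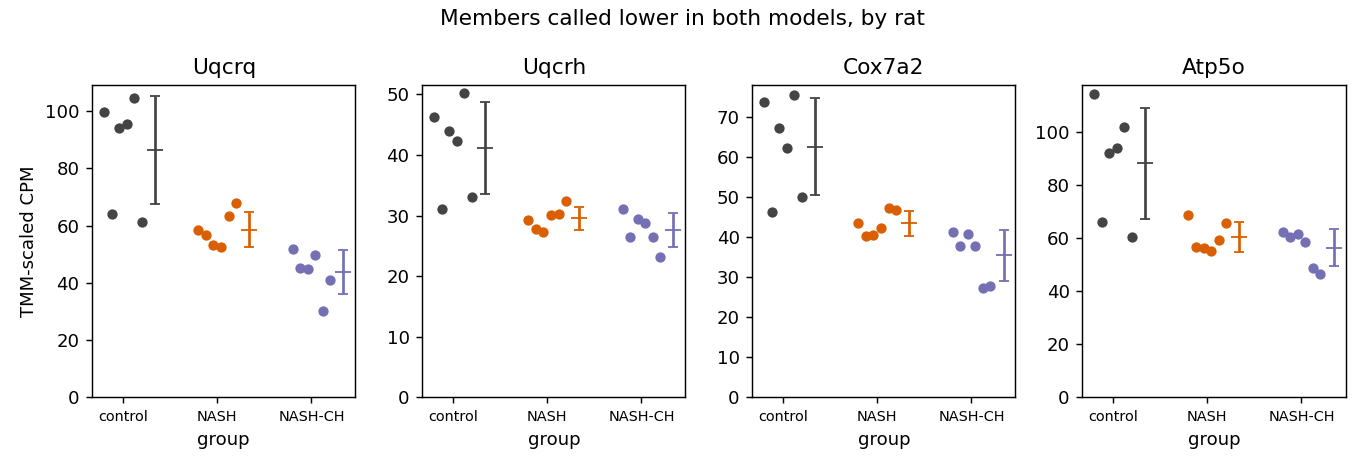
CPM, scaled by TMM factors, of Uqcrq, Uqcrh, Cox7a2 and Atp5o in the 18 rats: each point is 1 rat and the bar beside each group is the mean ± SD (n = 6), with the y axis from 0. Control rats 2 and 6 are the low control points in each panel, and NASH-CH rats lie below every control for Uqcrq, Uqcrh and Cox7a2.

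In complex V, all 4 genes of the peripheral stalk (median log2 fold change -0.53) and all 3 of the small membrane subunits (-0.55) were lower in NASH-CH rats. Of the 5 genes of the catalytic F1 part (-0.37), Atp5d and Atp5e were lower. Atp5o, the stalk subunit that confers oligomycin sensitivity, was at 60.3 to 114 CPM in control (median 93), 55 to 68.6 in NASH livers (58) and 46.5 to 62.3 in NASH-CH rats (59.5). Control rats 2 and 6 lay within the NASH range, control rat 6 also lay within that of NASH-CH, and the medians of the models are close to each other. It fell by 0.53 in NASH livers (SE 0.14, adjusted p = 0.0416) and by 0.62 in the NASH-CH group (SE 0.14, adjusted p = 0.00616). Atp5j, also of the stalk, was at 22.7 to 35.3 CPM in control (median 32.8), 19.8 to 26.5 in NASH livers (23) and 19.6 to 22.4 in NASH-CH rats (21.2), all below the controls. Its log2 fold change was -0.50 in NASH-CH rats (SE 0.11, adjusted p = 0.00578).

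Atp5j2, a small membrane subunit, was at 63.5 to 103 CPM in control (median 93.4), 56.4 to 69.5 in NASH livers (63.4) and 41.3 to 64.9 in NASH-CH rats (55.6). Atp5e, the epsilon subunit of F1, was at 47.6 to 91.7 CPM in control (median 73.4), 43.5 to 52.6 in NASH livers (48.2) and 36.9 to 47.7 in NASH-CH rats (41.7). In both genes 5 of 6 NASH-CH rats were below every control. The log2 fold changes in NASH-CH rats were -0.71 for Atp5j2 (SE 0.14, adjusted p = 0.00237) and -0.69 for Atp5e (SE 0.14, adjusted p = 0.0028). The catalytic pair of F1 did not pass. Atp5a1 was at 304 to 495 CPM in control, 271 to 366 in NASH livers and 256 to 408 in NASH-CH rats, with a log2 fold change of -0.23 in NASH-CH rats (95% interval -0.53 to 0.06, adjusted p = 0.273). Atp5b was at 665 to 994, 597 to 733 and 548 to 772 CPM, with -0.37 (-0.64 to -0.10, adjusted p = 0.0554). The log2 ratio of Atp5j2 to Atp5a1 counts was -2.40 to -1.82 in control, -2.52 to -2.26 in NASH livers and -2.85 to -2.59 in NASH-CH rats, with NASH-CH below both other groups. For Atp5e over Atp5a1 it was -2.79 to -2.14, -2.93 to -2.55 and -3.11 to -2.79, where NASH-CH touched control and overlapped NASH. For Atp5g1 over Atp5a1 it was -2.80 to -2.07, -3.07 to -2.66 and -3.16 to -2.73, and all 3 ranges overlapped.

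The c subunit, which forms the rotating ring of the ATP synthase, is coded by Atp5g1, Atp5g2 and Atp5g3, which give the same mature protein. Atp5g1 was at 43.8 to 96.3 CPM in control (median 80.6), 32.8 to 57.8 in NASH livers (42.8) and 31.8 to 53.2 in NASH-CH rats (48.7). Its groups overlap, with 4 of 6 NASH and 2 of 6 NASH-CH rats below every control. It fell by 0.77 in NASH livers (SE 0.18, adjusted p = 0.0295) and by 0.73 in the NASH-CH group (SE 0.19, adjusted p = 0.0133), but was at -0.53 (adjusted p = 0.08) without NASH-CH rats 5 and 6. Atp5g3 was at 93 to 123 CPM in control, 78.4 to 102 in NASH livers and 61.6 to 97.7 in NASH-CH rats, and fell by 0.44 in the latter (adjusted p = 0.0193), a call also lost without those 2 rats (adjusted p = 0.0994). Atp5g2 was at 66.5 to 95.2, 61.5 to 76.2 and 46.3 to 75.8 CPM and did not pass, with -0.21 in NASH livers (adjusted p = 0.327) and -0.34 in the NASH-CH group (adjusted p = 0.0693). Atp5g1 made up 20.7% to 31.1% of the counts of the 3 genes in control (median 28.1%), 18.1% to 25.4% in NASH livers (21.3%) and 21.4% to 25.5% in NASH-CH rats (23.2%), and these ranges overlap.

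**Figure D5:**
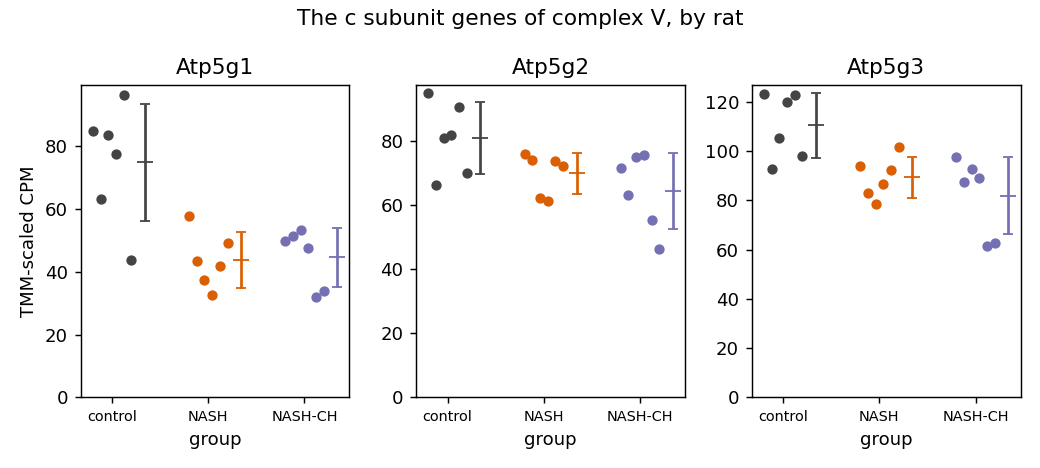
CPM, scaled by TMM factors, of the 3 genes for the c subunit of complex V in the 18 rats: each point is 1 rat and the bar beside each group is the mean ± SD (n = 6), with the y axis from 0. The median of Atp5g1 is 80.6 in control, 42.8 in NASH livers and 48.7 in NASH-CH rats, and the groups overlap in each panel.

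Between the models, 0 members were called lower and 0 higher in NASH-CH in comparison to NASH rats by limma-voom, edgeR or DESeq2, against 2.39% of all genes called lower and 1.81% called higher. At an unadjusted p under 0.05 there were 8 members by each of the 3 tools, which by limma-voom is 20.5% of the members against 17.5% of all genes, a share near the background. The median over members was -0.13, and 0.00 with NASH-CH rats 5 and 6 left out. Uqcrq was at -0.42 (95% interval -0.73 to -0.11, adjusted p = 0.122), Uqcr10 at -0.56 (-0.96 to -0.17, adjusted p = 0.11) and Cox8a at -0.41 (-0.73 to -0.09, adjusted p = 0.152). For the core members the intervals were -0.22 to 0.22 for Uqcrc2, -0.25 to 0.35 for Atp5a1 and -0.31 to 0.22 for Atp5b. Uqcrq was lower in every NASH-CH rat than in any NASH rat, as were 2.1% of all genes, and the Uqcrb entry ENSRNOG00000032204 was higher in every NASH-CH rat, as were 1.36% of all genes.

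The isoforms known from muscle, lung or testis were close to absent. Cox7a1, Cox8b, Cox8c and Cox7b2, with the pseudogene Cox6c-ps1, had 0 to 2 counts in any rat, and Cox4i2, the isoform of lung and low oxygen, had 0 to 8. Cox6b2, known from testis, had 0 to 9 counts in control, 0 to 2 in NASH livers and 4 to 14 in the more deeply sequenced NASH-CH rats. Cox6a2, the heart and muscle isoform, had 12 counts in NASH-CH rat 5 and 0 or 1 in the others. These 8 genes did not reach the minimum and were not tested.

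Genes that act with the complexes were counted from lists. The lists are short and no set test was run. In NASH-CH rats 8.6% of all genes were called lower and 8.38% higher. Of assembly factors of complex III, 2 of 6 tested were lower in NASH-CH rats, Uqcc2 at -0.59 (adjusted p = 0.039) and Ttc19 at -0.31 (adjusted p = 0.0218). Of those of complex IV, 6 of 22 were lower and 1 higher. Cox14, which acts in the assembly of COX1, fell by 1.09 (SE 0.22, adjusted p = 0.00279). Its level was low, at 0.81 to 1.61 CPM in control and 0.294 to 0.774 in NASH-CH rats. Pet100 fell by 0.71 (adjusted p = 0.00379) and the copper chaperone Sco1 by 0.34 (adjusted p = 0.0181), and Coa5 rose by 0.26 (adjusted p = 0.0463). Of 6 for complex V, Fmc1 was lower at -0.72 (adjusted p = 0.00378). The medians of these lists were -0.26, -0.15 and -0.09, against -0.47 for the members. In NASH rats 0 genes of the 3 lists passed in either direction by limma-voom, against 1.54% of all genes lower and 1.58% higher.

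Of 11 partners of the complexes, 2 were lower in NASH-CH rats, against 8.6% of all genes. They were Ndufa4, a protein found with complex IV, at -0.55 (adjusted p = 0.0104) and Slc25a3, the mitochondrial phosphate carrier, at -0.26 (adjusted p = 0.033). Of 14 regulators of nuclear or mitochondrial respiratory genes, 3 were lower in NASH-CH rats and 0 higher, against 8.6% and 8.38% of all genes. In this list 7 log2 fold changes were negative and 7 positive (median -0.02). Esrra, the receptor ERR alpha, fell by 0.47 (adjusted p = 0.0102), Polrmt, the mitochondrial RNA polymerase, by 0.37 (adjusted p = 0.0341) and Tfam, which packages mitochondrial DNA, by 0.27 (adjusted p = 0.0305). In NASH rats 1 of the 14 passed, Sp1, which was higher by 0.40 (adjusted p = 0.0476), against 1.58% of all genes called higher. In NASH-CH rats Sp1 was at 0.26 and did not pass (adjusted p = 0.107). Nrf1 was at 0.07 (adjusted p = 0.772), Gabpa at -0.11 (adjusted p = 0.452) and Yy1 at -0.28 (adjusted p = 0.107) in NASH-CH rats. The coactivators Ppargc1a, Pprc1 and Ppargc1b were at 0.96, 0.64 and 0.63 and did not pass (adjusted p = 0.146, 0.269 and 0.314).

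Markers of liver cell types moved between the groups as well, where 8.6% of all genes were called lower and 8.38% higher in NASH-CH rats. All 8 hepatocyte markers were measured, with summed levels of 120000 to 182000 CPM in control, 83100 to 140000 in NASH livers and 79100 to 133000 in NASH-CH rats, and Alb, Apoa1 and Ttr were lower in the latter at -0.61, -0.66 and -0.76 (adjusted p = 0.0304, 0.0107 and 0.0174). The other 5 did not pass, from -0.07 for Serpinc1 to 0.15 for Cps1, and the median of the list was -0.06. Most of the sum was Alb, at 90400 to 132000 CPM in control. The 8 of 9 stellate cell and myofibroblast markers tested summed to 249 to 343, 206 to 287 and 261 to 427 CPM. Col1a1, Tagln and Des rose in NASH-CH rats by 1.02, 0.97 and 0.65 (adjusted p = 0.0186, 0.00444 and 0.00468). Most of the sum was Col3a1 (213 to 301 CPM in control), 1 of 5 that did not pass in NASH-CH rats (0.22, adjusted p = 0.283). Of the 6 cholangiocyte markers 4 were tested and summed to 7.97 to 9.9, 6.29 to 11.8 and 6.27 to 47.5 CPM, highest in NASH-CH rat 5. None of the 4 passed in NASH-CH rats against control. Endothelial markers (5 of 6) were at 184 to 260, 242 to 275 and 154 to 262 CPM and Vwf alone passed, higher in NASH-CH rats by 1.13 (adjusted p = 0.00245), while Kdr was at -0.35 (adjusted p = 0.115). Summed macrophage markers (6 of 6) were at 198 to 375, 155 to 229 and 132 to 197 CPM. Of these, 4 were lower in NASH-CH rats, namely Marco, Clec4f, Cd163 and Csf1r at -2.15, -0.58, -0.48 and -0.46 (adjusted p = 0.00568, 0.0381, 0.0304 and 0.00635). Cd68 was at 0.15 (adjusted p = 0.49). The 1 of 4 T cell markers tested was at 0.289 to 0.808, 0.267 to 0.671 and 0.224 to 1.04 CPM. None of the 6 striated muscle markers reached the filter. In NASH rats Apoa1 (-0.82, adjusted p = 0.011) and Marco (-2.78, adjusted p = 0.0168) were lower, and no other tested marker passed. Of all genes, 1.54% were called lower and 1.58% higher in NASH rats. The part of these cell types in the members' levels was not tested.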

How the data were processed

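Liver RNA of 18 rats was sequenced from poly(A) libraries. Per the methods and labels, the authors trimmed adapters (Trim Galore), aligned reads to Rnor_6.0 with STAR in 2 passes and counted genes with RSEM. The deposited values are expected counts per gene, of which 6.53% to 7.73% per rat were not whole, and these were rounded here. The labels and the methods name different RNA kits and different schedules, and the schedule of the methods is given.

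All 18 rats entered 1 fit in R 4.3.3: filterByExpr, TMM factors and limma-voom (limma 3.58.1, edgeR 4.0.16), with moderated statistics, 1 mean per group and Benjamini-Hochberg adjustment over all 12904 genes at 0.05. All adjusted p-values are from this limma-voom fit unless named. As alternatives, the quasi-likelihood test of edgeR and DESeq2 1.42.0 were run, with DESeq2 size factors, library size alone, other filters, pairs of groups fitted alone, sample quality weights, thinned counts, a replicate block and each rat left out. Summing duplicate entries and leaving out NASH-CH rats 5 and 6 were added after the data were seen. The fits were tested on simulated counts.

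The members and lists were chosen with earlier results of these data known. Genes named are the members with the smallest p in each complex and model (at most 4 past the threshold). Also named are members listed as core, c subunit genes, isoforms, and up to 3 genes of each related list. Cox4i1 and Cox5a were on the core list, though their role is subunit 4 and 5 of complex IV. Atp5d, Atp5s, Atp5sl, Cox7a2l, Cox5b, Cox7b, Uqcrb, Cox7b2, Cox6c-ps1, Nrf1, Gabpa, Yy1, Ppargc1a, Pprc1, Ppargc1b, Cps1, Serpinc1, Kdr, Col3a1, Clec4f and Cd68 were added after their values were seen. No replicates were near-identical (chi-square per degree of freedom at least 28.3). The labels do not say whether rats were processed in batches. Each p-value of the main fit sets a difference between groups against the spread between rats within groups, moderated over all genes. Rats were housed in pairs, and cage mates are not marked. Protein sequences and transcript lengths were not used here.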

Additional observations from a re-analysis of the deposited data

Results flagged for a closer look

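Among 78 groups of 6 rats examined for a single rat far from the rest, 2 were marked by Dixon's test, in which chance marks about 1 in 20. Cyc1 was lowest in NASH rat 3, at 42 CPM against 50.4 to 53.6 in the other NASH rats (gap over range 0.725). Cox4i1 was lowest in NASH rat 4, at 119 CPM against 136 to 144 in the others (gap over range 0.675).

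Cox6a2, which did not reach the count minimum, had 12 counts in NASH-CH rat 5 and 0 in every control rat. The same library held 48 counts of Tnnt2 and 11 of Acta1, with 0 of Ckm, Myh6, Myh7 and Mb.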

How the results depend on the processing

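In NASH rats the number of members called lower, 5 by limma-voom, was 9 by edgeR, 19 by DESeq2, 1 with library size only, 0 with no filter, 9 with at least 10 counts in every sample, 24 with quality weights and 14 without NASH-CH rats 5 and 6. By complex (III, IV and V) these were 3 and 4 for IV and V by edgeR, 4, 6 and 9 by DESeq2, 0, 0 and 1 with library size only, 0, 0 and 0 with no filter, 3 and 4 for IV and V with the count minimum, 6, 7 and 11 with quality weights, 5 and 7 for IV and V without those 2 rats, 3 and 1 for IV and V with 2 groups alone, and 1 for III with thinned NASH-CH counts. Leaving out single rats gave 0 to 20 members, and 0 to 5, 0 to 6 and 0 to 9 by complex. The share of all genes called lower moved as well. It was 1.54% by limma-voom, 2.53% by edgeR, 5.1% by DESeq2, 0.62% with library size only and 0.618% with no filter. With the count minimum it was 1.98%, with quality weights 6.17%, without those 2 rats 3.86%, with 2 groups alone 2.34% and with thinned counts 1.87%. Single rats left out gave 0.465% to 4.19% of all genes.

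In NASH-CH rats the 28 members called lower became 17, with 2 higher, under library size only (6 for IV and 7 for V) and 16 without NASH-CH rats 5 and 6 (3, 7 and 6), DESeq2 gave 9 for III, and single rats left out gave 23 to 34 (5 to 9, 9 to 11 and 9 to 14). For III the count was 9 without control rat 2 or 6. The share of all genes called lower, 8.6% in the main fit, was 3.79% with library size only and 6.4% without NASH-CH rats 5 and 6. By DESeq2 it was 10.9%, and with single rats left out 6.28% to 9.94%. The medians with library size only were -0.21 for members, -0.11 for III and -0.38 for IV. Against NASH, library size only gave 1 lower (Uqcrq, complex III) and 1 higher, no filter gave 1 lower (Cox6b1, complex IV), quality weights gave 1 higher, both times Uqcrb, and single rats left out gave 0. All genes were at 248 lower and 119 higher with library size only, 2127 lower with no filter and 357 higher with quality weights.

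Deviations of same-numbered rats were weakly correlated, from -0.119 to 0.171 over all pairs of groups. For NASH-CH with control all 6 correlations were positive, at 0.0272 to 0.124. These values cannot show whether rats of 1 number shared a batch or cage, and no pairing was used in the main fit. With a replicate block 3 members were called lower in NASH, 1 for III and 0 for IV, against 1.78% of all genes.

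With library size only, 7 members turned positive in NASH (0.02 to 0.14, Atp5g2 at 0.02), 3 in NASH-CH (0.02 to 0.16, Atp5a1 at 0.03) and 2 between the models (0.01 and 0.03). The other turns below were looked for among the named genes. Between the models, Uqcrc2 was at 0.03 with library size only, 0 with the count minimum, 0.04 with quality weights and 0 with thinned counts, and Uqcrc1 was at 0.01 and Atp5b at 0 with quality weights. Without NASH-CH rats 5 and 6 the values were 0.01 for Atp5o, 0.03 for Uqcr11 and Atp5g2, 0.06 for Uqcrc1, 0.09 for Uqcrc2, 0.07 for Atp5b and 0.04 for Atp5g3. With single rats left out they ranged from -0.05 to 0.12 for Atp5g1, -0.04 to 0.05 for Cyc1, 0 to 0.07 for Cox5a and -0.01 to 0.11 for Atp5a1, and Uqcrc2 reached 0.05. The causes of these changes were not tested, beyond fewer rats or another set of genes where the setting itself makes them.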
